A study of Mus musculus with 22 samples.

Results

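Voltage-gated calcium and sodium channels are described here through the 32 of 55341 counted genes whose symbol begins with Cacna, Cacnb or Scn followed by a digit. The choice was made by name and used no measured value. The 30 described are by role 10 pore-forming calcium channel genes (Cav α1: 4 of the L type, 3 of the P/Q, N and R types and 3 of the T type), 4 α2δ genes, 4 Cav β genes, 8 pore-forming sodium channel genes (Nav α), the related gene Scn7a (Nax) and 3 Nav β genes. They were measured in mouse striatum by TRAP-seq, in which a tagged ribosomal protein lets the ribosomes of a chosen cell type be pulled down with the mRNA they carry. All 11 animals, 6 wild type and 5 Fmr1 mutant, carried the ribosomal protein Rpl10a fused to EGFP in medium spiny neurons that express the dopamine receptor Drd1 (D1 neurons). Each animal gave 1 pulldown library (IP) and 1 library of the lysate before pulldown (input, "Total" in the labels), so the 4 groups were wild-type IP, wild-type input, mutant IP and mutant input. Fmr1 encodes FMRP, an RNA-binding protein whose loss causes fragile X syndrome, and the mutant is labelled KO. Age, sex, strain and the form of the Fmr1 allele are not given in the sources used here. The tag was placed in D1 neurons, whereas the input holds mRNA of all cells in the dissected tissue.

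A voltage-gated calcium channel is built on an α1 subunit, which forms the pore and senses voltage, with a cytosolic β subunit that brings α1 to the membrane and an extracellular α2δ subunit that promotes surface density. L-type channels couple synaptic activity to gene expression, P/Q-, N- and R-type channels drive transmitter release and dendritic calcium entry, and T-type channels open near rest. A sodium channel has a single large α subunit that carries the action potential, and β subunits that set its gating and placement. Medium spiny neurons rest at very negative voltages, and Scn4b, a Nav β gene, is a known striatal marker.

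The IP libraries held 9375611 to 82376192 counts and the input libraries 25164548 to 43276230. The 32 channel genes took 0.473% to 0.566% of counts in IP (51437 to 396964 reads a library) and 0.169% to 0.294% in input (47998 to 100201 reads), where the 2 mitochondrial ribosomal RNAs took 25.1% to 53.2% against 0.420% to 0.904% in IP. Levels are CPM (counts relative to library size) scaled by the TMM method over all 22 libraries. Fmr1 was at 86.3 ± 12.4 CPM in wild-type IP and 9.99 ± 1.29 CPM in mutant IP (SD, n = 6 and 5), with no overlap, and likewise in input, so the libraries matched their genotype labels. In both genotypes all 10 D1 markers were higher in IP, and all 7 markers of Drd2-expressing neurons and all markers of astrocytes, oligodendrocytes and their precursors, and microglia were lower, as were 9 (wild type) and 8 (mutant) of 12 endothelial and mural markers. Of 11 cortical excitatory markers, 0 were called lower and 1 was called higher in each genotype. Most had negative log2 changes, 7 of 11 in wild type and 10 of 11 in the mutant (medians -0.36 and -0.82). Their summed level was 380.4 ± 111 CPM in IP and 241 ± 99.6 CPM in input in wild type. In the mutant it was 365 ± 129.6 CPM in IP and 274 ± 198 CPM in input. Animals 1, 3, 9 and 12 stood apart by Slc17a7, which encodes a cortical glutamate transporter. It was at 25.2 to 113 CPM in their inputs against 0.640 to 3.30 CPM in the other 7. In their IP libraries it was at 17.2 to 68.0 CPM against 0.0466 to 1.31 CPM. The summed cortical excitatory markers separated less, at 253 to 602 CPM against 138 to 241 CPM in input. In IP their ranges overlapped, at 371 to 559 CPM against 256 to 453 CPM.

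In every group the channel mRNA of highest level per kilobase of exon was Scn4b, followed by Cacnb4 and Scn2b. Per kilobase, wild-type IP held 177 ± 20.7 CPM of Scn4b, 105 ± 11.4 of Cacnb4, the β4 subunit of calcium channels, and 55.5 ± 6.89 of Scn2b (SD, n = 6). Scn2a, which encodes the pore Nav1.2, was the highest α subunit gene at 38.9 ± 4.38 CPM per kilobase, ahead of Cacnb1 at 32.6 ± 4.57, which it overlapped within their SDs. Among calcium channel pores the order in wild-type IP was Cacna1e (Cav2.3, R type) at 13.98 ± 1.54, Cacna1b (Cav2.2, N type) at 5.28 ± 1.22, then Cacna1c (Cav1.2, L type) at 4.05 ± 0.562, Cacna1i (Cav3.3, T type) at 3.93 ± 0.333, Cacna1a (Cav2.1, P/Q type) at 3.45 ± 0.562, Cacna1h (Cav3.2, T type) at 2.85 ± 0.578 and Cacna1d (Cav1.3, L type) at 1.2 ± 0.268. From Cacna1b to Cacna1h the ranges of mean ± SD of neighbours in that order overlapped, whereas Cacna1e and Cacna1d stood apart from their neighbours. The order depends on the exon length used, that of all annotated exons of a gene merged. Before division by length, Cacna1c was at 85.8 ± 11.9 CPM in wild-type IP, above Cacna1b at 52.5 ± 12.2 CPM. The rest were scarce. Cacna1g (Cav3.1), Cacna2d4, Scn7a, Scn9a (Nav1.7) and Scn11a (Nav1.9) had group means of at most 0.461 CPM per kilobase. Cacna1f and Cacna1s, L-type channels of retina and skeletal muscle, and Scn4a and Scn10a, sodium channels of skeletal muscle and sensory neurons, had 0 to 23 reads a library and did not pass the filter on low counts. A fit without that filter called Cacna1f lower in IP in wild type (adjusted p = 0.0247) and Cacna1s in the mutant (adjusted p = 0.0303), on 23 input reads from animal 12 alone and on 16 input reads in all, against 0 in IP. The other 26 genes were tested, Scn11a in all comparisons but that of genotype in input.

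**Figure D1:**
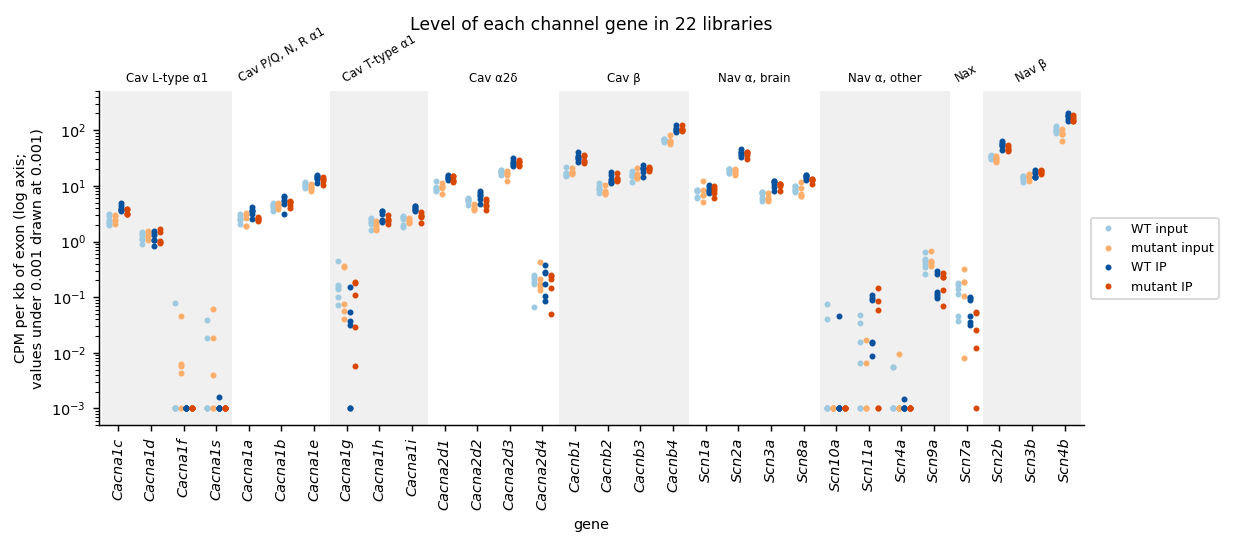
Level of each of the 30 channel genes, in CPM per kilobase of exon on a log axis, grouped by subunit type, with 1 point for each of the 22 libraries coloured by group. Scn4b, Cacnb4 and Scn2b have the highest means in every group, and the genes not tested lie at or near the lower edge, where values under 0.001 are drawn.

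The comparison of IP with input in each genotype asks which of these mRNAs the pulldown of D1 ribosomes holds above or below the whole lysate. Most channel genes were higher in IP. In wild type 17 of 26 tested genes were higher and 2 lower at an adjusted p under 0.05, where over all genes tested 21.8% were higher and 27.8% lower. In the mutant 16 were higher and 2 lower, against 20.9% and 26.4% of all genes. Their median log2 change was 0.50 for wild type and 0.40 for the mutant, beside -0.11 over all genes in both. Of the calls, 15 higher and 1 lower (Scn9a) were shared by both genotypes, and no gene was called in opposite directions. Unless another tool is named, an adjusted p of a gene is that of edgeR's quasi-likelihood test, with Benjamini-Hochberg adjustment over all genes tested. In tissue lysate, fewer cells of a type and less RNA per cell cannot be told apart.

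By subunit type, all 4 Cav β genes were higher in both genotypes (median log2 change 0.62 in wild type and 0.72 in the mutant), as were 3 of 4 brain Nav α genes (0.68 and 0.67) and all 3 Nav β genes (0.74 and 0.66). Of the α2δ genes 2 of 4 were higher in each genotype (0.41 and 0.35). Pores of the P/Q, N and R types were higher in 2 of 3 genes in wild type (0.41) and 1 of 3 in the mutant (0.13), T-type pores in 2 of 3 and 1 of 3, and L-type pores in 1 of 2 tested genes in both. Of Scn9a and Scn11a, the tested Nav α genes known mainly from sensory neurons, neither was called higher in wild type. Scn11a was called higher in the mutant, on few reads, and Scn9a was called lower in both genotypes.

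**Figure D2:**
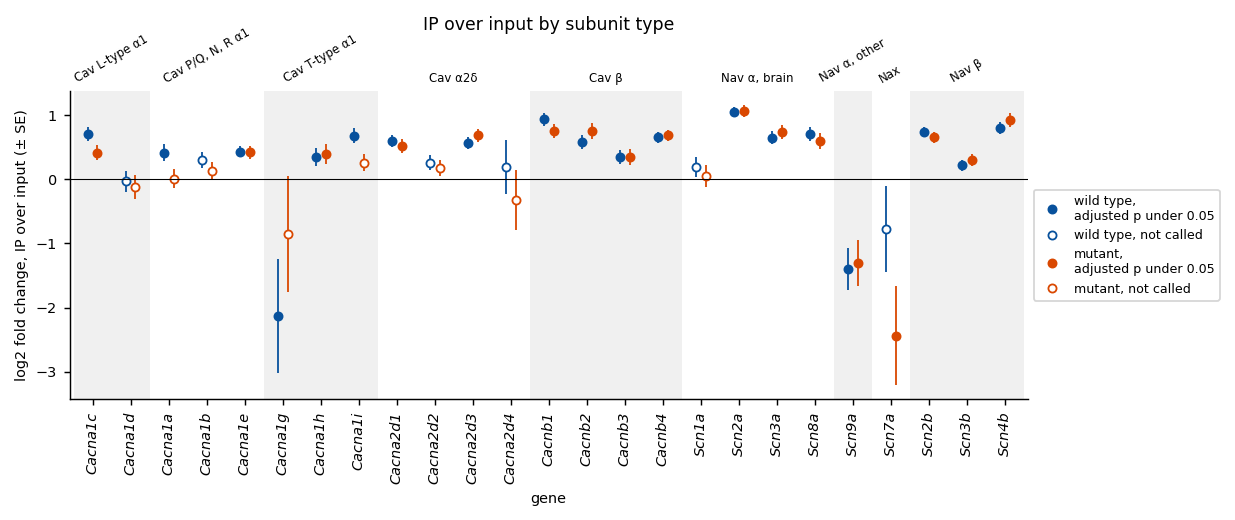
Log2 fold change of IP over input (vertical axis, points with SE) for 25 of the 26 tested channel genes by subunit type in wild type and mutant; Scn11a, with at most 7 input reads, is left out. Filled points passed an adjusted p of 0.05: the Cav β group is filled throughout, and Scn9a is filled and below 0 in both genotypes.

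Among the brain sodium channel pores, Scn2a (chr2:65620771-65767447 in GRCm38) had the largest IP excess among the called channel genes in both genotypes, Scn11a with its few reads aside. Across the 6 wild-type input libraries the lowest, median and highest Scn2a levels were 218, 244 and 258 CPM, and across the 6 IP libraries 418, 497 and 578 CPM. The 5 mutant animals gave 197, 255, 240.2, 233 and 213 CPM in input and 391, 526.5, 511, 492 and 457 CPM in IP. All IP values lay above all input values of the same genotype. The level of Scn2a in IP over input was 2.07-fold (log2 1.05 ± 0.08 SE, adjusted p = 4.34e-11) in wild type and 2.09-fold (log2 1.06 ± 0.09 SE, adjusted p = 2.34e-10) in the mutant. Scn8a (chr15:100869858-101045938), which encodes Nav1.6, the channel of the axon initial segment and nodes, was also higher. Scn8a was at 122, 138 and 158 CPM (lowest, median and highest) in wild-type input and at 203, 232 and 244 CPM in wild-type IP. In mutant input the 5 values were 106, 145, 186, 114 and 103 CPM, and in mutant IP 167, 208, 209, 202 and 202 CPM. The ranges were separate in wild type, with IP above input, and overlapped in the mutant. Its IP over input was 1.63-fold (log2 0.70 ± 0.11 SE, adjusted p = 5.28e-06) in wild type and 1.51-fold (log2 0.60 ± 0.12 SE, adjusted p = 0.000176) in the mutant. Scn3a (Nav1.3), a channel best known from the developing brain, was higher by log2 0.65 ± 0.11 and 0.74 ± 0.12 in wild type and mutant. Scn1a (Nav1.1), known for its role in fast-spiking interneurons, was the exception, with log2 changes of 0.20 ± 0.16 (adjusted p = 0.317) and 0.04 ± 0.17 (adjusted p = 0.86). With the animal as a block the Scn1a value in wild type was 0.20 and passed, at an adjusted p of 0.0230.

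Scn1a, Scn2a and Scn3a lie in 1 cluster on chromosome 2, and parts of their sequences are alike, which bears on how far reads can be assigned between them. In the transcripts of GENCODE vM21 such identity was limited: 5.62% of the 50-base runs of Scn2a, 4.03% of those of Scn1a, 6.49% of those of Scn3a and 4.04% of those of Scn9a also occurred in another of the 30 genes, and 0.0374% of those of Scn8a. Of the 30 genes, 22 shared no such run with another of them. How the authors' counting treated reads that match several genes is not given in the sources used here.

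Among sodium channel β subunits, Scn4b (chr9:45138395-45154152) and Scn2b (chr9:45117782-45130070), which link covalently to the pore and lie 8.3 kb apart on chromosome 9, were both higher in IP. In wild type, Scn4b levels (lowest, median and highest of 6) were 448, 491 and 590.2 CPM in input and 739, 897 and 1020.0 CPM in IP. Mutant libraries gave 429, 439.8, 319.5, 514 and 428 CPM in input and 734, 852, 721, 787 and 941 CPM in IP. No IP value of Scn4b was as low as the highest input value of its genotype. Scn4b was higher in IP by 1.75-fold (log2 0.80 ± 0.10 SE, adjusted p = 8.00e-08) in wild type and 1.9-fold (log2 0.92 ± 0.11 SE, adjusted p = 4.53e-08) in the mutant. Wild-type Scn2b levels had a lowest, median and highest value of 143, 155 and 164 CPM in input, against 207, 259 and 301 CPM in IP. For the mutant the input values were 126, 140.0, 132, 157 and 149 CPM and the IP values 208, 217, 201, 249.8 and 235 CPM. The IP ranges of Scn2b lay wholly above the input ranges. Scn2b in IP over input was 1.67-fold (log2 0.74 ± 0.08 SE, adjusted p = 1.17e-08) in wild type and 1.58-fold (log2 0.66 ± 0.09 SE, adjusted p = 4.70e-07) in the mutant. Scn3b changed less, by log2 0.22 ± 0.09 (adjusted p = 0.0368) and 0.30 ± 0.09 (adjusted p = 0.0102), and the wild-type call ended under 9 of 20 alternatives, among them limma-voom, DESeq2, RLE scaling and the fits without animal 12, 13 or 14, with an adjusted p up to 0.155.

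All calcium channel β subunit genes were higher in IP in both genotypes, Cacnb1 (chr11:98001508-98023034) by the most in wild type. Input libraries of the 6 wild-type animals held 69.1, 74.1 and 97.6 CPM of Cacnb1 (lowest, median and highest), and their IP libraries 120.2, 146 and 182 CPM. Those of the 5 mutant animals held 93.4, 75.5, 77.96, 79.996 and 79.7 CPM in input and 161, 118, 126, 158 and 124 CPM in IP. In both genotypes the lowest IP library exceeded the highest input library. Cacnb1 in IP over input was 1.91-fold (log2 0.94 ± 0.10 SE, adjusted p = 1.34e-08) in wild type and 1.69-fold (log2 0.76 ± 0.11 SE, adjusted p = 2.11e-06) in the mutant. Cacnb4 (chr2:52428320-52676831) was higher as well. Across the 6 wild-type input libraries the lowest, median and highest Cacnb4 levels were 541, 601 and 632 CPM, and across the 6 IP libraries 815, 934 and 1112 CPM. The 5 mutant animals gave 581, 502, 736, 554 and 572 CPM in input and 939, 869, 1111, 898 and 914 CPM in IP. All IP values lay above all input values of the same genotype. Its change was 1.57-fold (log2 0.65 ± 0.08 SE, adjusted p = 2.04e-07) in wild type and 1.61-fold (log2 0.68 ± 0.09 SE, adjusted p = 5.13e-07) in the mutant. The annotated exons of Cacnb4 overlap another gene, A430018G15Rik, over 16% of their length, and counts from the library kit, which does not mark strand, cannot tell such reads apart. Cacnb2 was higher by log2 0.58 ± 0.11 and 0.76 ± 0.13 and Cacnb3 by 0.35 ± 0.11 and 0.35 ± 0.12. The Cacnb3 call ended without wild-type animal 14 (adjusted p = 0.0613), and in the mutant without animal 10 (0.0948) or 11 (0.0751).

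The α2δ subunits, which include the targets of gabapentin (Cacna2d1 and Cacna2d2), divided evenly. Cacna2d1 (chr5:15934691-16374511) and Cacna2d3 (chr14:28904943-29721864) were higher in IP. Cacna2d1 was at 98.6, 114 and 149.6 CPM (lowest, median and highest) in wild-type input and at 159, 174 and 193 CPM in wild-type IP. In mutant input the 5 values were 89.1, 122, 141, 117 and 112 CPM, and in mutant IP 149.6, 185, 188, 146 and 161 CPM. IP and input did not overlap in either genotype, with IP the higher. Cacna2d1 in IP over input was 1.51-fold (log2 0.60 ± 0.10 SE, adjusted p = 1.51e-05) in wild type and 1.43-fold (log2 0.51 ± 0.11 SE, adjusted p = 0.000326) in the mutant. In wild type, Cacna2d3 levels (lowest, median and highest of 6) were 139, 154 and 171 CPM in input and 196, 226 and 275 CPM in IP. Mutant libraries gave 148, 137, 107, 160.0 and 147 CPM in input and 202, 231, 208, 249.9 and 234 CPM in IP. No IP value of Cacna2d3 was as low as the highest input value of its genotype. Cacna2d3 in IP over input was 1.48-fold (log2 0.57 ± 0.09 SE, adjusted p = 6.09e-06) in wild type and 1.61-fold (log2 0.68 ± 0.10 SE, adjusted p = 1.64e-06) in the mutant. Cacna2d2 had log2 changes of 0.26 ± 0.12 (adjusted p = 0.0631) and 0.18 ± 0.13 (adjusted p = 0.26), and with the animal as a block the wild-type value, 0.25, passed at an adjusted p of 0.0128. Cacna2d4, with 11 to 260 reads a library, was at 0.19 ± 0.42 and -0.32 ± 0.46 and did not pass.

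Among calcium channel pores, Cacna1c (chr6:118587240-119196418) and Cacna1e (chr1:154390731-154884501) were higher in IP in both genotypes. Wild-type Cacna1c levels had a lowest, median and highest value of 42.6, 50.2 and 65.4 CPM in input, against 76.2, 80.9 and 106 CPM in IP. For the mutant the input values were 52.1, 60.5, 43.5, 51.4 and 64.1 CPM and the IP values 66.6, 80.3, 67.4, 67.1 and 81.1 CPM. The IP ranges of Cacna1c lay wholly above the input ranges. Cacna1c in IP over input was 1.63-fold (log2 0.70 ± 0.11 SE, adjusted p = 6.00e-06) in wild type and 1.33-fold (log2 0.41 ± 0.12 SE, adjusted p = 0.00589) in the mutant. Input libraries of the 6 wild-type animals held 235, 259 and 297 CPM of Cacna1e (lowest, median and highest), and their IP libraries 285, 356 and 399 CPM. Those of the 5 mutant animals held 208, 272, 256, 229.6 and 235 CPM in input and 257, 371, 333, 329 and 315 CPM in IP. IP and input ranges of Cacna1e overlapped in both genotypes. Cacna1e in IP over input was 1.35-fold (log2 0.43 ± 0.09 SE, adjusted p = 0.00019) in wild type and 1.34-fold (log2 0.42 ± 0.10 SE, adjusted p = 0.000736) in the mutant. Cacna1d, the other neuronal L-type pore, did not pass, with log2 changes of -0.03 ± 0.17 and -0.12 ± 0.18. Cacna1b, the N-type pore of nerve terminals, was at 0.30 ± 0.13 (adjusted p = 0.0535) and 0.13 ± 0.14 (adjusted p = 0.479), and without wild-type animal 14 the first value was 0.43 and passed (0.00254).

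Cacna1a (chr8:84388440-84640246) and Cacna1i (chr15:80287238-80398279) were called higher in IP in wild type but not in the mutant. Across the 6 wild-type input libraries the lowest, median and highest Cacna1a levels were 23.8, 29.2 and 35.3 CPM, and across the 6 IP libraries 29.2, 40.2 and 48.4 CPM. The 5 mutant animals gave 21.4, 33.6, 36.9, 21.8 and 30.1 CPM in input and 31.2, 28.01, 28.7, 30.02 and 26.8 CPM in IP. IP and input ranges of Cacna1a overlapped in both genotypes. Cacna1a in IP over input was 1.33-fold (log2 0.41 ± 0.13 SE, adjusted p = 0.00987) in wild type and 1.01-fold (log2 0.01 ± 0.14 SE, adjusted p = 0.961) in the mutant, and the wild-type call ended without animal 14 (adjusted p = 0.0570). Cacna1i was at 18.04, 26.1 and 28.5 CPM (lowest, median and highest) in wild-type input and at 34.5, 38.8 and 42.7 CPM in wild-type IP. In mutant input the 5 values were 24.2, 25.9, 22.2, 21.6 and 23.2 CPM, and in mutant IP 28.1, 27.5, 21.3, 33.7 and 29.97 CPM. The ranges were separate in wild type, with IP above input, and overlapped in the mutant. Cacna1i in IP over input was 1.6-fold (log2 0.68 ± 0.12 SE, adjusted p = 2.02e-05) in wild type and 1.2-fold (log2 0.26 ± 0.13 SE, adjusted p = 0.0934) in the mutant, and the mutant value passed without animal 9 (0.0437) or without animals 1, 3, 9 and 12 (0.0337). The difference between the genotypes was tested on its own as the interaction of genotype and assay, and is given with the genotype results. Cacna1h was higher by log2 0.35 ± 0.14 and 0.39 ± 0.15, with adjusted p of 0.0362 and 0.035, calls that ended under 7 and 6 of 20 alternatives.

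Scn9a (chr2:66480080-66634962), the pore Nav1.7 known from sensory neurons, was the only channel gene called lower in IP in both genotypes. In wild type, Scn9a levels (lowest, median and highest of 6) were 3.33, 5.36 and 8.25 CPM in input and 1.26, 1.52 and 3.71 CPM in IP. Mutant libraries gave 5.46, 5.71, 4.59, 5.11 and 8.57 CPM in input and 0.883, 3.0, 2.89, 3.43 and 1.72 CPM in IP. The ranges were separate in the mutant, with IP below input, and overlapped in wild type. Scn9a in IP over input was 0.378-fold (log2 -1.40 ± 0.33 SE, adjusted p = 0.000744) in wild type and 0.404-fold (log2 -1.31 ± 0.35 SE, adjusted p = 0.00324) in the mutant. Cacna1g (chr11:94408391-94474198), the T-type pore of thalamic and cortical neurons, was lower in wild type. Wild-type Cacna1g levels had a lowest, median and highest value of 0.744, 1.49 and 4.56 CPM in input, against 0, 0.344 and 1.54 CPM in IP. For the mutant the input values were 0.577, 3.74, 3.6, 0.411 and 0.758 CPM and the IP values 0.294, 1.11, 1.87, 0.0586 and 1.78 CPM. IP and input ranges of Cacna1g overlapped in both genotypes. Its IP over input was 0.228-fold (log2 -2.13 ± 0.88 SE, adjusted p = 0.0479) in wild type and 0.552-fold (log2 -0.86 ± 0.91 SE, adjusted p = 0.469) in the mutant, and the wild-type call ended under 9 alternatives, with an adjusted p up to 0.104. In input, Cacna1g was highest in animals 12, 3 and 9, which are among the 4 with high Slc17a7. The part of cortical mRNA in the result was not tested. Without those 4 animals the wild-type value was -2.35 (adjusted p = 0.0777). Scn7a, which encodes a sodium-sensing channel of glia, was lower in the mutant (log2 -2.44 ± 0.77, adjusted p = 0.0106) and at -0.78 ± 0.67 in wild type (adjusted p = 0.355), on 0 to 59 reads a library. The mutant call of Scn7a ended under limma-voom (-2.07, adjusted p = 0.0743) and, with its adjusted p at the threshold, without animals 1, 3, 9 and 12 (-2.75). Scn11a, a sensory neuron channel, had 0 to 29 reads in IP and 0 to 7 in input. It was called higher in the mutant (adjusted p = 0.0371), a call that ended under 5 alternatives, and no fold is given at that depth.

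The 5 neighbours of the chromosome 2 cluster did not share a direction. In order from Scn3a through Scn2a, Scn1a and Scn9a to Scn7a, with gaps between neighbours of 53.1, 503.3, 39.2 and 38.5 kb, their log2 changes in wild type were 0.65, 1.05, 0.20, -1.40 and -0.78. In the mutant they were 0.74, 1.06, 0.04, -1.31 and -2.44.

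Levels of interneuron markers are given beside these results. Of 12 interneuron markers 10 were lower in IP in wild type and 8 in the mutant (median log2 change -4.42 and -3.95), and their summed level was 205 to 322 CPM in wild-type input against 16.4 to 91.02 CPM in wild-type IP, and 217 to 356 against 16.9 to 96.1 CPM in the mutant. None of the 12 was at 0 throughout a group. The part of interneuron mRNA in the input values of Scn1a and Scn9a was not tested.

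Another measure, which does not depend on how libraries are scaled, was each gene's share of its subunit family. It is the gene's counts per kilobase of exon divided by the sum over its family (Cav α1, α2δ, Cav β, Nav α with Scn7a, or Nav β) in the same library. Of the 22 shares of at least 1% in IP or input described here, 10 differed between IP and input over the 11 animals, in an exact 2-sided sign-flip permutation test adjusted over all 23 shares of at least 1%. No p below 0.000977 is possible in it. Shares of 1 family sum to 100% and are not independent.

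In the IP libraries the mRNA of sodium channel pores was more Scn2a and less Scn1a than in the input libraries. The share of Scn2a went from 44.1% ± 2.4 of input to 53.8% ± 1.15 of IP (SD, n = 11), higher in 11 of 11 animals, with p at the smallest value and an adjusted exact p of 0.00281. Scn1a went from 18.2% ± 2.61 of input to 11.8% ± 0.808 of IP and Scn9a from 1.08% ± 0.339 of input to 0.241% ± 0.0984 of IP, both lower in 11 of 11 animals at the same exact p. By animal, the Scn1a share in input was 16.3, 17.4, 19.9, 18.2, 18.02 and 15.7% in wild-type animals 1, 4, 12, 13, 14 and 20 and 15.4, 18.9, 24.9, 17.2 and 18.5% in mutant animals 2, 3, 9, 10 and 11. In IP it was 12.1, 12.003, 12.5, 12.1, 12.1 and 10.3% and 10.8, 12.1, 13.2, 11.996 and 11.1%, in the same order. The highest input share was in mutant animal 9, whose input also had the highest summed cortical markers, 602 CPM, and the part of that mRNA was not tested. Without animals 1, 3, 9 and 12 the mean difference in the share was -5.73 percentage points for Scn1a and 8.88 for Scn2a, at an adjusted exact p of 0.0399 for each. Among Nav β genes, Scn4b went from 57.9% ± 4.27 of input to 65.6% ± 2.26 of IP, higher in 11 of 11 animals, and Scn3b from 8.74% ± 0.968 of input to 6.55% ± 0.807 of IP, lower in 11 of 11 animals, each again at an adjusted exact p of 0.00281.

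Within the calcium channel families, Cacnb1 gained share and Cacnb3 lost it, although both were higher in IP as levels. Cacnb1 went from 16.2% ± 1.95 of input to 18.5% ± 1.93 of IP, higher in 9 of 11 animals (adjusted exact p = 0.00898), and Cacnb3 from 14.5% ± 1.84 of input to 11.8% ± 1.78 of IP, lower in 11 of 11 (0.00281). Cacna2d2 went from 15.5% ± 1.6 of input to 12.4% ± 2.21 of IP, lower in 11 of 11 animals (adjusted exact p = 0.00281). Of the pores, Cacna1c went from 9.91% ± 1.24 of input to 11.5% ± 0.969 of IP, higher in 9 of 11 animals (adjusted exact p = 0.00898), and Cacna1d from 5.01% ± 0.731 of input to 3.72% ± 0.881 of IP, lower in 10 of 11 (0.0184). Without animals 1, 3, 9 and 12 the Cacna1c and Cacnb1 shares no longer passed (adjusted exact p = 0.111 and 0.0653), and the other 8 did. The shares of Cacnb4, the largest of the Cav β family at 61.2% of input and 61.7% of IP, and of Cacna1e, the largest pore at 39.3% and 40.99%, did not pass.

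**Figure D3:**
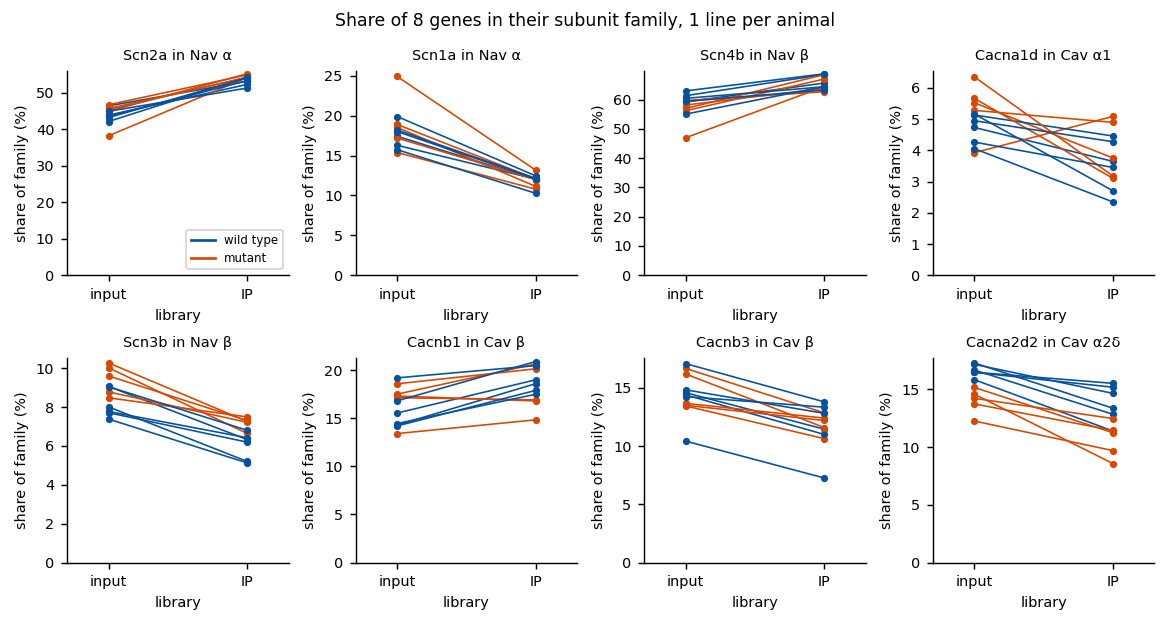
Share of 8 genes in their subunit family (vertical axes, %, starting at 0) in the input and IP library of each of the 11 animals, with 1 line per animal. All lines rise for Scn2a and Scn4b and all fall for Scn1a, Scn3b, Cacnb3 and Cacna2d2, while 9 of 11 rise for Cacnb1 and 10 of 11 fall for Cacna1d.

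Genotypes were next set against each other in IP and, in a separate fit, in input, to ask whether loss of Fmr1 goes with other levels of these mRNAs. No channel gene passed in either. In IP 0 of 26 genes were called, where 0.0553% of all genes tested were, and 6 had an unadjusted p under 0.05, beside 7.62% of all genes. All 6 were lower in the mutant. Of the 26 genes, 19 had a negative and 7 a positive log2 change, with a median of -0.09 beside 0.00 over all genes. In input 0 of 25 were called (background 0.0183%), 2 had an unadjusted p under 0.05 (background 6.84%), and the median was -0.02. Limma-voom called none in either comparison, and DESeq2 called 1 gene in each, Cacna1i in IP and Cacna2d2 in input.

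The genes of smallest p in IP were Cacna1i, Cacna1a and Cacna2d2. Cacna1i, the T-type pore Cav3.3, was at 35.8, 39.1, 34.5, 42.2, 38.6 and 42.7 CPM in the IP of wild-type animals 1, 4, 12, 13, 14 and 20, and at 28.1, 27.5, 21.3, 33.7 and 29.97 CPM in that of mutant animals 2, 3, 9, 10 and 11. The groups did not overlap, the only such case among the 30 genes in IP or input, and the mutant mean was 72.5% of the wild-type mean. How often groups were separate among all genes tested was not counted, so this separation has no background beside it. The fitted log2 change was -0.46 ± 0.11 SE (unadjusted p = 0.000823, adjusted p = 0.22). DESeq2 called it (adjusted p = 0.0252), and over all alternatives the Cacna1i change ran from -0.54 to -0.37 and the adjusted p from 0.0252 to 0.502. In input the Cacna1i groups overlapped, at log2 -0.05 ± 0.13. Without animals 1, 3, 9 and 12 the IP change of Cacna1i was -0.40 (adjusted p = 0.370).

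Cacna1a, the P/Q-type pore, was at 31.2, 28.01, 28.7, 30.02 and 26.8 CPM in mutant IP, within or just below the wild-type IP range of 29.2 to 48.4 CPM. Its log2 change was -0.43 ± 0.12 in IP (unadjusted p = 0.00158, adjusted p = 0.277) and -0.04 ± 0.15 in input. Cacna2d2 was lower in the mutant in both kinds of library, by -0.47 ± 0.14 in IP (unadjusted p = 0.00261, adjusted p = 0.333) and -0.40 ± 0.10 in input (unadjusted p = 0.000842, adjusted p = 0.366). In input Cacna2d2 stood at 36.6, 43.2, 45.5, 48.5, 42.5 and 45.2 CPM in the 6 wild-type animals and 30.8, 36.5, 32.3, 36.9 and 29.3 CPM in the 5 mutant animals, where only wild-type animal 1 lay within the mutant range. DESeq2 called Cacna2d2 in input (adjusted p = 0.0493), and the adjusted p ran from 0.0493 to 0.707 over all alternatives. The remaining genes with an unadjusted p under 0.05 were Scn8a (-0.21 ± 0.08), Scn2b (-0.21 ± 0.09) and Cacna1c (-0.24 ± 0.10) in IP, with adjusted p of 0.537, 0.606 and 0.617, and Scn4b in input (-0.25 ± 0.10, adjusted p = 0.655).

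The authors' deposited table, which names wild type over mutant, gave Cacna1i a log2 fold change of 0.46 with an adjusted p of 0.018 in IP. On the same scale the authors' deposited table gave Cacna1a 0.44 (0.0465) and Cacna2d2 0.48 (0.0901) in IP, and Cacna2d2 0.40 (0.0514) in input, with adjusted p in brackets. They come from the same animals and are no further experiment.

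**Figure D4:**
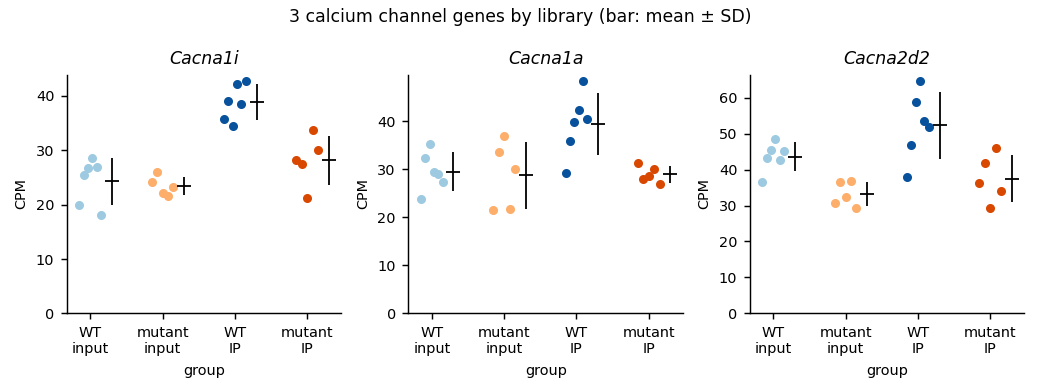
CPM of Cacna1i, Cacna1a and Cacna2d2 in each library of the 4 groups (points), with the mean ± SD as a bar beside each group (n = 6 wild type, 5 mutant). In IP the Cacna1i points of the mutant, 21.3 to 33.7 CPM, lie below those of wild type, 34.5 to 42.7 CPM, and those of the other genes overlap.

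In IP, log2 changes were negative for all 3 P/Q-, N- and R-type pores, all 4 α2δ genes and all 4 brain Nav α genes. Their medians by subunit type were -0.13, -0.17 and -0.09. In input 2 of 3, 3 of 4 and 3 of 4 were negative, with medians of -0.04, -0.08 and -0.09. Over all genes the median was 0.00 in both IP and input. Several of the IP changes were within their SE, among them Cacna2d3 (-0.03 ± 0.08) and Cacna2d4 (-0.26 ± 0.45). Cav β genes had a median of 0.02 in IP and 0.01 in input, with no member past an unadjusted p of 0.05. For Cacnb4 the change was 0.02 ± 0.08 in IP and -0.02 ± 0.09 in input, and for Scn2a it was -0.06 ± 0.09 and -0.08 ± 0.08. Scn3b had the most positive change in IP among genes above 10 CPM, 0.15 ± 0.09, and did not pass (adjusted p = 0.765). Markers of other cells are given beside these values: none was called between genotypes, but all 10 D1 and all 7 D2 markers had negative changes in input (medians -0.27 and -0.10), and 9 of 10 tested interneuron markers (median 0.64) and 8 of 9 cortical markers (0.44) had positive changes in IP. In input 7 of 8 cortical markers were positive (0.59) and 7 of 11 interneuron markers (0.07). Oligodendrocyte markers were positive in 12 of 14 in both IP and input (0.17 and 0.11), and astrocyte markers in 9 of 11 in IP (0.28) and 9 of 12 in input (0.20). Endothelial and mural, microglial and precursor markers were positive in 4 of 5, 3 of 7 and 2 of 4 in IP and in 6 of 12, 7 of 14 and 3 of 8 in input. Their part in the channel gene values was not tested.

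**Figure D5:**
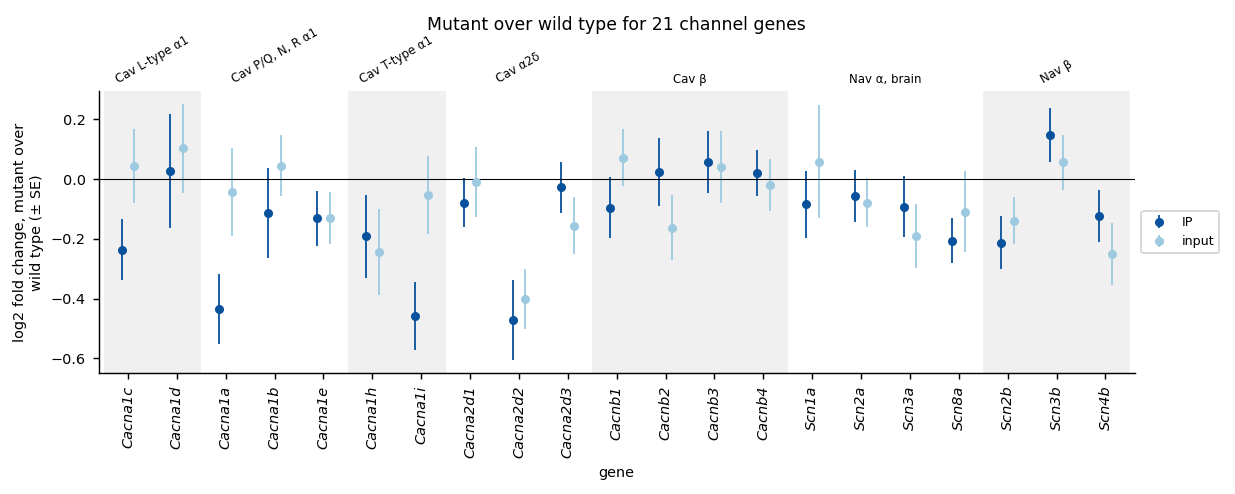
Log2 fold change of mutant over wild type (vertical axis, points with SE) in IP and in input for the 21 channel genes with group means above 10 CPM, by subunit type. No point passed an adjusted p of 0.05; Cacna1i and Cacna1a lie below 0 in IP and near 0 in input, and Cacna2d2 lies below 0 in both.

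The interaction asks whether IP over input differed between genotypes. None of the 26 channel genes passed, where 0% of all genes tested did, and 2 had an unadjusted p under 0.05, beside 4.1% of all genes; limma-voom and DESeq2 called none of the 26. The 2 were Cacna1i (-0.42 ± 0.17, unadjusted p = 0.0222) and Cacna1a (-0.40 ± 0.19, unadjusted p = 0.047). So the wild-type calls of these genes in IP over input, without a mutant call, were not shown to differ by genotype. Per animal, the ratio of Cacna1i in IP to input ran from 1.29 to 2.36 in wild-type and from 0.957 to 1.56 in mutant animals, and that of Cacna1a 1.11 to 1.67 and 0.777 to 1.46, with overlap for both.

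Family shares were compared between genotypes by an exact 2-sided permutation test over all divisions of the 11 animals into 6 and 5, in which no p below 0.00216 is possible. In IP none of the 22 shares passed after adjustment. The smallest exact p were 0.00866 for Scn3b and 0.0130 for Cacna2d2. Scn3b was at 6.02% ± 0.688 of Nav β in wild type and 7.19% ± 0.319 in the mutant. Cacna2d2 was at 13.8% ± 1.58 and 10.7% ± 1.54 of α2δ. Next, at an exact p of 0.0173 each, were Scn2a (53.1% ± 1.11 and 54.6% ± 0.489 of Nav α) and Scn8a (19.9% ± 0.815 and 18.4% ± 0.744). The adjusted exact p was 0.0996 for each of these genes. In input the share of Cacna2d2 was 15.8, 16.7, 16.5, 17.2, 16.5 and 17.3% in the 6 wild-type animals and 13.7, 15.2, 14.6, 14.2 and 12.3% in the 5 mutant animals. All 5 mutant shares lay below all 6 wild-type shares, at the smallest exact p, 0.00216, and an adjusted exact p of 0.0498. It was the only share called, and the call cannot be held against a left-out animal, since with 10 animals the smallest adjusted exact p of Cacna2d2 was 0.110.

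Genes whose products work with these channels were taken from lists of Cacng genes (γ subunits and AMPA receptor partners) and of other channel partners and regulators, 41 genes of which 37 were tested. In IP over input 20 were higher and 5 lower in wild type and 17 higher and 6 lower in the mutant, with medians of 0.35 and 0.27 beside -0.11 over all genes, of which 21.8% and 27.8% were higher and lower in wild type and 20.9% and 26.4% in the mutant. Of smallest p among the higher were Akap5, an anchor of kinases at L-type channels, and Kcnq3, a potassium channel of the initial segment. Their changes were 0.94 ± 0.10 and 0.66 ± 0.07 in wild type and 1.11 ± 0.11 and 0.67 ± 0.08 in the mutant. Also named were Dpysl2, which encodes the axonal protein CRMP2, for its p in wild type, and Fgf14, a sodium channel regulator, in the mutant. Dpysl2 was at 0.71 ± 0.08 in wild type and 0.67 ± 0.09 in the mutant, and Fgf14 at 0.52 ± 0.06 and 0.61 ± 0.07. Each of these was called higher in both genotypes. Among the lower were Cacng7 (-1.58 ± 0.17 and -1.90 ± 0.19) and Unc79, a partner of the sodium leak channel (-0.98 ± 0.13 and -1.29 ± 0.15). Gem, a GTPase that restrains calcium channels, was named for its p in wild type, and Nfasc, an initial segment adhesion protein, in the mutant. Gem was at -3.74 ± 0.83 in wild type and -2.51 ± 0.82 in the mutant, and Nfasc at -0.39 ± 0.09 and -0.42 ± 0.10. Each of these was called lower in both genotypes. Between genotypes no partner was called; 6 of 36 tested had an unadjusted p under 0.05 in IP, 7 of 36 in input and 0 of 37 in the interaction, where 7.62%, 6.84% and 4.1% of all genes did. The smallest p in IP were those of Fgf13, a regulator of sodium channels (0.41 ± 0.09, adjusted p = 0.156) and Kcnq3 (-0.21 ± 0.07, adjusted p = 0.449), in input those of Rims2, a release site protein that binds calcium channels (0.26 ± 0.09) and Akap5 (-0.33 ± 0.11), and in the interaction those of Cacng8 (-0.80 ± 0.40) and Unc79 (-0.30 ± 0.20).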

How the data were processed

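Per the submitters' processing notes, reads were aligned with STAR to mm10 and counted with featureCounts, with no versions given, and DESeq2 was named for the comparisons. What the authors deposited are raw counts, whole numbers by gene symbol in 22 libraries, and they were used unchanged. The authors' deposited tables of wild type over mutant hold log2 fold changes and p-values, adjusted and not, per the file headers, and were used only where named. Per the labels' protocols the library kit does not mark strand, and all pulldowns and sequencing formed 1 batch.

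Each of the 32 symbols had an entry in GENCODE vM21, on GRCm38 (mm10), which gave positions, exon lengths, overlaps and the transcripts searched for shared 50-base runs. Genotype was fitted within the 11 libraries of an assay, and IP over input and the interaction over all 22 as 4 groups. The main tool was edgeR 4.0.16 (R 4.3.3), with scaling by TMM, filterByExpr and robust quasi-likelihood tests, adjusted over all genes at 0.05. The procedure was tested on simulated data. Alternatives were DESeq2 1.42.0, limma 3.58.1 with voom, RLE scaling, other filters (none beyond 1 read, or 5 or more libraries at a CPM of 1 or more), leaving out the mitochondrial ribosomal RNAs, each animal, or animals 1, 3, 9 and 12, the animal as a block, fits of 1 genotype alone and, for shares, no division by exon length. Family shares were tested by exact permutation.

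Per the labels' protocols an IP and an input of 1 animal number come from a single lysate, so the numbers pair them. Over 8299 genes the deviations of the 11 pairs from their group means correlated at 0.232 to 0.530.

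The channel genes, the partner and marker lists and the tests were chosen with earlier results of these data known. Of the 32 channel genes 2, and 1 partner gene, are not reported here; they stay in all fits, in the family sums and in the adjustment of p-values. Values are given for the 2 genes of each subunit type with the largest called IP over input change in wild type. For IP and input they are by library in the mutant and as lowest, median and highest in wild type. Cacna2d2 and the genes described by counts were added after their values were seen. Of the partners, up to 3 called genes a direction, or otherwise the 2 of smallest p, are named. With more reads behind a gene its counting error is smaller; the depths are given with the levels. Protein sequences were not used here.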

Additional observations from a re-analysis of the deposited data

Results flagged for a closer look

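In 104 sets of libraries (26 genes in 4 groups), 9 held a library far from the others of its group; chance alone flags about 1 in 20 sets. Wild-type animal 12 had Cacna1g at 4.56 CPM in input (the other 5 at 0.744 to 1.69) and at 1.54 CPM in its IP (0 to 0.552). This animal is among the 4 with high Slc17a7. In the input of mutant animal 11, Cacna2d4 was at 4.14 CPM (1.27 to 1.99) and Scn9a at 8.57 CPM (4.59 to 5.71). In the input of mutant animal 2, Cacnb1 was at 93.4 CPM (75.5 to 80.0) and Cacnb2 at 138.9 CPM (96.4 to 107.7), and in its IP Scn8a was low, at 166.7 CPM (202.2 to 208.7). Wild-type animal 20 had 97.6 CPM of Cacnb1 in input (69.1 to 77.1). Cacnb4 in the IP of mutant animal 9 was at 1111 CPM (868.7 to 938.6).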

How the results depend on the processing

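For IP over input, 14 of 19 calls in wild type and 14 of 18 in the mutant held under all 20 alternatives, and no called value changed direction. The counts of calls stayed within 1.5 times of those reported, at 15 to 19 in wild type and 15 to 18 in the mutant with 1 animal left out, and at 21 and 17 with the animal as a block, a pairing under which Cacna2d2 and Scn1a in wild type passed and Scn11a in the mutant did not. Between genotypes 0 channel genes were called in IP and in input, and 1 in each under DESeq2; the cause was not tested. In the interaction 0 were called under every alternative run, the block included. Of the family shares, 10 differed between IP and input, with 10 to 11 when 1 animal was left out and 8 without animals 1, 3, 9 and 12. The 1 share called between genotypes in input fell to 0 without any 1 animal and 0 without those 4, where fewer animals leave fewer divisions. Without a filter on low counts the median change of all genes in wild-type IP over input was -0.32, and -0.37 under DESeq2, against -0.11. Genes with few reads (Cacna1g, Cacna2d4, Scn7a, Scn9a and Scn11a) have the widest errors, and Cacna1f, Cacna1s, Scn4a and Scn10a, which the filter removes, have too few reads for a fold; without the filter Cacna1f in wild type and Cacna1s in the mutant were called lower in IP, and the wild-type Cacna1g call was lost (adjusted p = 0.0820).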
